A study of Populus ussuriensis with 18 samples.

Results

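The 8 transcripts described here are a chosen part of those that the study lists as differentially expressed genes (DEGs) in drought-stressed poplar roots. The study annotates them as late embryogenesis abundant (LEA) or desiccation-related proteins other than dehydrins. Other listed LEA transcripts are read further below. They are 8 of the 12994 transcripts in the table. They were selected on the measured differences of their levels from 0 h at 1 or more times, so every comparison with 0 h is a description. No p is printed for one, and counts of transcripts past the DEG limits against 0 h are given only to show what the choice fixed. The results tested are differences between treated times. They compare no 0 h mean, but the 0 h libraries enter the shared estimate of the spread, and the treated libraries also entered the choice. Wild-type Populus ussuriensis seedlings from tissue culture, 3 weeks old, were moved to liquid medium with 6% polyethylene glycol (PEG), a polymer that holds water back from roots. Roots were taken at 0 h and after 6, 12, 24, 48 and 120 h, with 3 pools of seedlings at each time, and the labels' protocol says that all times were harvested together. The 0 h roots are the only control, so PEG, the transfer to liquid and the time spent in it cannot be told apart.

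LEA proteins were first known from seeds that dry out at the end of their development. Most are very hydrophilic and disordered in solution, and they are thought to shield membranes and enzymes when water is lost. In vegetative tissue many LEA genes respond to water deficit and to the hormone abscisic acid (ABA), and the family falls into groups with unrelated sequence.

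The transcripts fell into 5 that were higher after transfer and 3 that were lower. The higher ones are an ABA-inducible family protein (f13p60_601_14927), LEA D-29 (f2p45_1593_6461), LEA29 (f2p37_1282_27056), an 18 kDa seed maturation protein (f9p60_852_12520) and desiccation-related protein PCC3-06 (f2p60_983_30209). The lower ones are a longer and a shorter transcript of Lea5 (f3p60_781_32678 and f2p10_527_36146) and SENESCENCE-ASSOCIATED GENE 21, or SAG21 (f2p60_765_32980). SAG21 is an Arabidopsis relative of the citrus protein Lea5, and in the study's annotation the longer Lea5 transcript and SAG21 carry the Pfam domain LEA_3. LEA D-29, LEA29 and PCC3-06 carry a match to the Pfam apolipoprotein domain, and the 18 kDa protein carries LEA_1. No domain is given for the ABA-inducible transcript or the shorter Lea5 transcript. LEA D-29 and LEA29 are named after the same cotton seed protein, the 18 kDa protein after a soybean one, and PCC3-06 after a protein of the resurrection plant Craterostigma.

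Levels are FPKM, fragment numbers corrected for transcript length and for library size. The FPKM of a library summed to 1067374 to 1159874. The spacing of low values puts the depth at very roughly 12160000 to 17770000 fragments, an estimate used in no test. Replicate 3 at 48 h had the lowest mean correlation with the libraries of its own time (0.971). Its level was below both other 48 h replicates in 7 of the 8 transcripts. How often this held over all transcripts was not counted, so it is not read as particular to the 8. Replicate 1 at 120 h also stood apart for the ABA-inducible and Lea5 transcripts. All 4 transcripts listed as root nitrate or ammonium transporters were above 1 FPKM at every time. The 18 transcripts for photosystem and chlorophyll-binding proteins were also read, with a summed level of 996 to 1092 FPKM at 6 h, 2292 to 2390 FPKM at 0 h and 3424 to 4492 FPKM at 120 h. Their part in any result here was not tested. In roots taken whole, fewer cells of a type and less RNA per cell cannot be told apart.

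**Figure D1:**
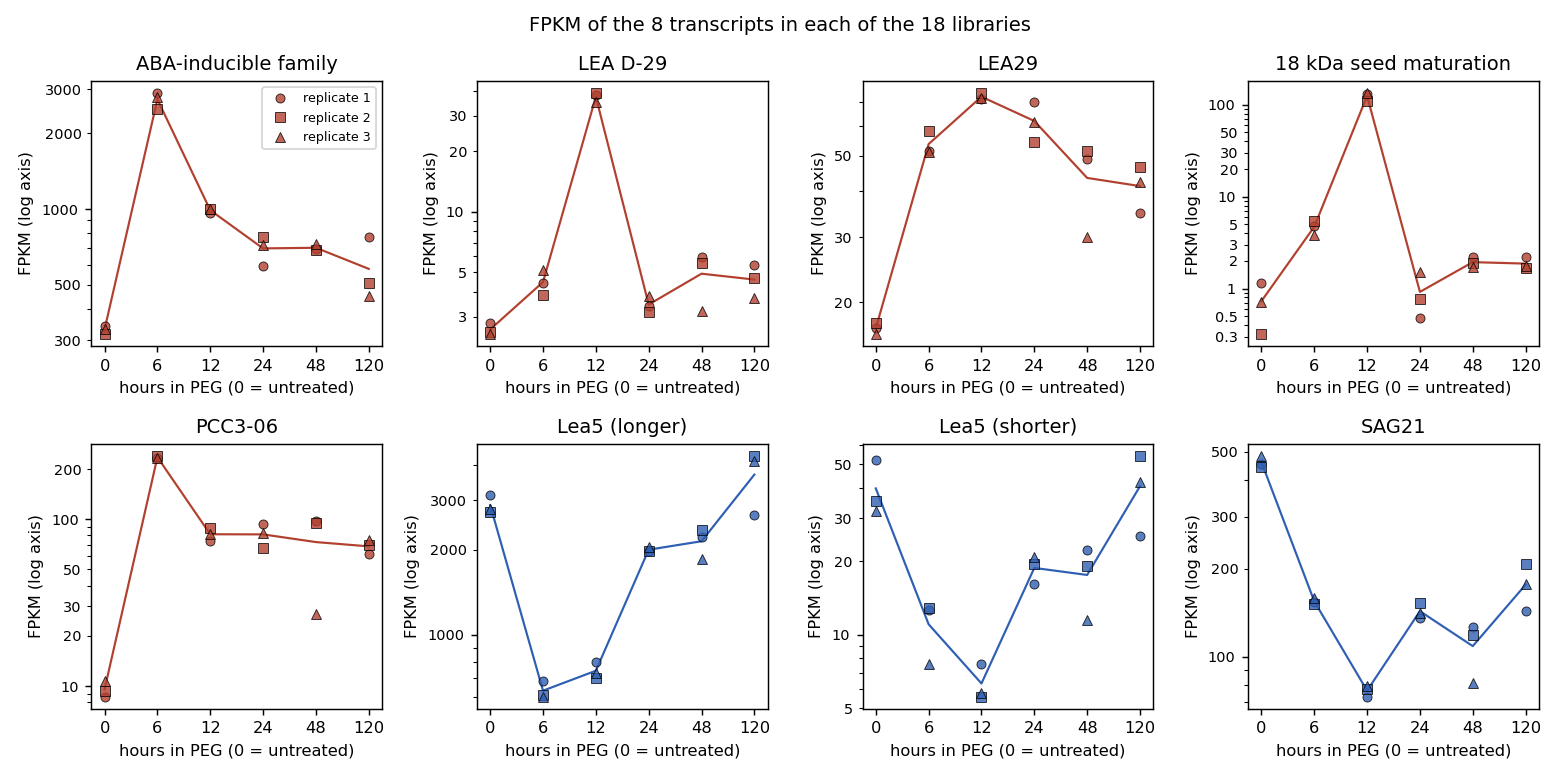
FPKM of each transcript (log axis, a different range in each panel) against hours in PEG, with 1 point per library, a marker shape per replicate and a line through the means of the 3 libraries. Red panels are the 5 transcripts that were higher after transfer and blue panels the 3 that were lower. LEA D-29 and the 18 kDa seed maturation protein peak at 12 h, and the ABA-inducible transcript and PCC3-06 peak at 6 h.

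The ABA-inducible transcript was the most abundant of the 5 higher ones. No open reading frame was predicted on it. At 0 h it read 342, 318 and 334 FPKM in replicates 1, 2 and 3. At 6 h it read 2897, 2512 and 2798 FPKM. The 6 h libraries were thus well apart from all others, at 8.26 times the 0 h mean (log2 difference 3.04 ± 0.15, SE). At 12 h it read 961.2, 1002 and 1004 FPKM, and at 24 h 594, 775 and 722 FPKM. At 48 h it read 694, 684 and 725 FPKM, and at 120 h 774, 506 and 452 FPKM. All 15 treated libraries were above the highest 0 h library, and the 24, 48 and 120 h libraries overlapped each other. Replicate 1 at 120 h was 1.62 times the mean of the other 2, and without it the 120 h mean was 1.45 times that of 0 h in place of 1.74 times. At 24 h the log2 difference from 0 h was 1.06, and 0.98 without replicate 2 of that time.

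Between treated times the ABA-inducible transcript fell by 1.46 ± 0.15 on the log2 scale from 6 to 12 h (limma, adjusted p = 2.4e-06, lower in 3 of 3 libraries). The mean over 6, 12 and 24 h (early) was higher than that over 48 and 120 h (late) by 0.97 ± 0.10 (adjusted p = 4.7e-07), just under the log2 difference of 1 that a call needed. It passed without replicate 1 at 24 h (1.01) or replicate 1 at 120 h (1.09). Of its time course, 12 to 24 h gave a difference of -0.51 (adjusted p = 0.0148), also under that minimum.

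Transcripts f2p60_649_34521 and f2p60_646_346812 have the same best protein match as the ABA-inducible transcript, so reads shared among the 3 may have been split between them. The first averaged 389 FPKM at 0 h and 1978 at 6 h, and the second 7.75 and 88.9 FPKM. Summed, the 3 read 757.8, 690.02 and 736 FPKM at 0 h and 5121, 4374 and 4911 FPKM at 6 h. The sum was 6.60 times its 0 h mean at 6 h and 1.56 times at 120 h, so the shape stayed but the folds were smaller than for the single transcript. The share of f13p60_601_14927 in the sum was 45.5% ± 0.4 (SD, n = 3) at 0 h, 57.0% ± 0.4 at 6 h, 62.2% ± 0.4 at 12 h and 50.7% ± 0.4 at 120 h. For the sum the log2 difference from 0 h was 0.83 at 24 h and 0.84 at 48 h, both under 1. From 6 to 12 h the sum fell by 1.59 ± 0.16 on the log2 scale (limma, adjusted p = 1.9e-06).

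PCC3-06 had the largest difference from 0 h of the 8 at 6 h. It read 8.63, 9.29 and 10.7 FPKM at 0 h and 232, 240.3 and 234 FPKM at 6 h, 24.7 times higher. At 12 h it read 74.0, 88.2 and 81.7 FPKM, at 24 h 93.9, 67.3 and 82.4 FPKM, and at 120 h 61.6, 70.1 and 74.8 FPKM. From 12 h on it therefore kept a plateau at 7.21 to 8.51 times the 0 h mean, with every library above 0 h and the times overlapping each other. At 48 h it read 97.3 and 94.9 FPKM in replicates 1 and 2 and 26.9 FPKM in replicate 3. Without replicate 3 the 48 h mean was 10.1 times that of 0 h in place of 7.64 times.

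PCC3-06 fell by 1.53 ± 0.34 on the log2 scale from 6 to 12 h (limma, adjusted p = 0.00231, lower in 3 of 3 libraries). The later steps gave differences of -0.01, -0.35 and 0.12, with adjusted p of 0.986, 0.521 and 0.893. The early mean exceeded the late mean by 0.80 ± 0.22 (adjusted p = 0.00576), under the minimum of 1. Without replicate 3 at 48 h that difference was 0.50.

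LEA29 is the broad, moderate member of the higher group. It read 17.1, 17.5 and 16.4 FPKM at 0 h, 51.5, 58.5 and 51.2 FPKM at 6 h, and 71.2, 73.9 and 71.8 FPKM at 12 h. At 24 h it read 70.1, 54.5 and 61.8 FPKM, at 48 h 48.9, 51.6 and 30.0 FPKM, and at 120 h 34.9, 46.7 and 42.4 FPKM. Each treated library was above 0 h. The times in order of their means were 12, 24, 6, 48, 120 and 0 h, and 24, 6, 48 and 120 h overlapped their neighbours. The highest mean was 4.26 times that of 0 h, and the one at 120 h 2.43 times. No step between treated times passed both limits. The difference was 0.42 ± 0.16 from 6 to 12 h (limma, adjusted p = 0.0436) and -0.54 ± 0.16 from 24 to 48 h (adjusted p = 0.0284, and -0.29 in the fit without replicate 3 at 48 h). The early mean was above the late mean by 0.56 ± 0.10 (adjusted p = 2.5e-04).

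LEA D-29, which matched the same cotton protein, had a different course. It read 2.80, 2.52 and 2.46 FPKM at 0 h, 4.41, 3.85 and 5.13 FPKM at 6 h, and 38.1, 39.0 and 35.0 FPKM at 12 h. At 24 h it was back at 3.39, 3.16 and 3.80 FPKM. At 48 h it read 5.98, 5.54 and 3.22 FPKM, and at 120 h 5.40, 4.66 and 3.72 FPKM. The 12 h libraries alone exceeded 6 FPKM, at 14.4 times the 0 h mean. The other treated means were 1.33 to 1.89 times that of 0 h, still with no overlap with the 0 h libraries. It rose from 6 to 12 h by 2.82 ± 0.17 on the log2 scale (limma, adjusted p = 1.2e-08, higher in 3 of 3 libraries) and fell by 3.11 ± 0.17 from 12 to 24 h (adjusted p = 5.7e-09, lower in 3 of 3). In ratios of mean FPKM these steps were 8.37-fold up and 10.8-fold down.

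The 18 kDa seed maturation protein showed the same 12 h peak at a larger size. It read 1.15, 0.32 and 0.72 FPKM at 0 h, 4.82, 5.45 and 3.85 FPKM at 6 h, and 132, 109 and 134 FPKM at 12 h. At 24 h it read 0.48, 0.77 and 1.51 FPKM, which overlapped 0 h. At 48 h it read 2.22, 1.88 and 1.72 FPKM, and at 120 h 2.18, 1.66 and 1.77 FPKM, all above the highest 0 h library. The 12 h mean was 171 times that of 0 h. A single fragment on this transcript was worth roughly 0.0863 to 0.126 FPKM, so the 0 h and 24 h levels rest on few fragments and the fold is imprecise. On the log2(FPKM + 1) scale the 12 h difference was 6.21 ± 0.20, and it ran from 4.502 to 7.37 with the other constants and scalings tried.

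The rise of the 18 kDa transcript from 6 to 12 h was 4.47 ± 0.20 on the log2 scale (limma, adjusted p = 9.5e-10, higher in 3 of 3 libraries). It fell by 6.07 ± 0.20 from 12 to 24 h, the largest step of any of the 8 (adjusted p = 5.3e-11, lower in 3 of 3), or 136-fold in mean FPKM. From 24 to 48 h it differed by 0.65 ± 0.20 (adjusted p = 0.0345), under the minimum of 1. Its early mean was above its late mean by 1.93 ± 0.13 (adjusted p = 7.6e-09), although at 24 h alone it was below both late times.

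**Figure D2:**
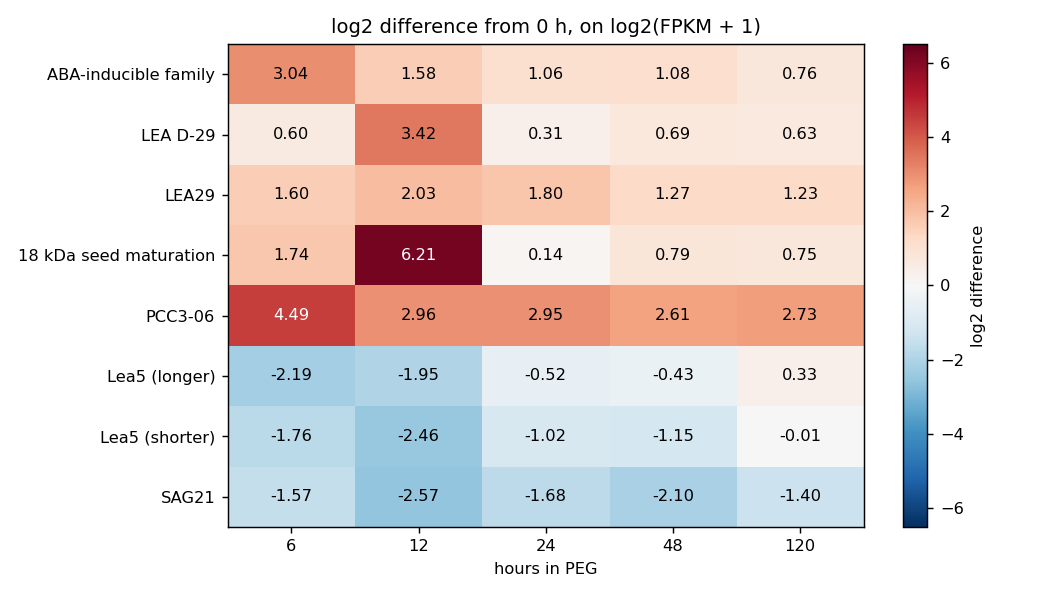
Log2 difference of each transcript from 0 h at each treated time, on the log2(FPKM + 1) scale, as colour (red higher, blue lower) and as a printed value, from the means of 3 libraries per time. The 5 upper rows are above 0 at all times. The 3 lower rows are below 0 from 6 to 48 h, and the longer Lea5 transcript is at 0.33 at 120 h.

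The longer Lea5 transcript was the most abundant of the 8 at 0, 24, 48 and 120 h, while at 6 and 12 h the ABA-inducible transcript was above it. At 6 h it had the lowest ratio to 0 h of the 8. At 0 h it read 3139.9, 2727 and 2782 FPKM. At 6 h it read 686, 610.4 and 602 FPKM, 0.220 times the 0 h mean, and at 12 h 798, 704 and 732.4 FPKM, 0.258 times. At 24 h it read 1988, 1974 and 2046 FPKM, and at 48 h 2227, 2347 and 1864 FPKM. At 120 h it read 2664, 4314 and 4118 FPKM. The libraries of 6 to 48 h all lay below 0 h, while those of 120 h lay on both sides of it, with replicate 1 below and the others above.

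The longer Lea5 transcript rose from 12 to 24 h by 1.43 ± 0.14 on the log2 scale (limma, adjusted p = 3.6e-06, higher in 3 of 3 libraries). From 48 to 120 h it was higher by 0.76 ± 0.14 (adjusted p = 0.00341), under the minimum of 1, and the difference was 0.98 in the fit without replicate 1 at 120 h. The early mean was below the late mean (log2 difference -1.503 ± 0.09, adjusted p = 2.6e-09), although the 24 h libraries overlapped those of 48 h.

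The shorter Lea5 transcript has no predicted open reading frame. It read 52.02, 35.3 and 32.2 FPKM at 0 h, 12.6, 12.9 and 7.59 FPKM at 6 h, and 7.58, 5.57 and 5.79 FPKM at 12 h. At 24 h it read 16.1, 19.5 and 20.8 FPKM, at 48 h 22.2, 19.1 and 11.5 FPKM, and at 120 h 25.4, 54.2 and 42.4 FPKM. It was lowest at 12 h, at 0.158 times the 0 h mean, and its 120 h libraries overlapped 0 h. Replicate 1 was the highest at 0 h, and the log2 differences from 0 h of -1.02 at 24 h and -1.15 at 48 h shrank to -0.82 and -0.95 without it. The 24 h value was -0.92 without replicate 1 at 24 h, and the 48 h value -0.89 without replicate 3 at 48 h.

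The shorter Lea5 transcript rose from 12 to 24 h by 1.44 ± 0.29 on the log2 scale (limma, adjusted p = 0.00161, higher in 3 of 3 libraries). It also passed from 48 to 120 h, with a rise of 1.15 ± 0.29 (adjusted p = 0.0223, higher in 3 of 3). This call was lost without replicate 3 at 48 h (0.88, adjusted p = 0.0705), replicate 2 at 120 h (0.91, adjusted p = 0.0977) or replicate 3 at 120 h (1.09, adjusted p = 0.0798). With the spread taken from the 48 and 120 h libraries alone it was also lost (1.15, adjusted p = 0.21). The early mean was below the late mean (log2 difference -1.17 ± 0.19, adjusted p = 8.2e-05).

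A further transcript with the same best match, f29p60_719_13862, carried most of the Lea5 signal and is not among the 8. It read 6062, 5044 and 5246 FPKM at 0 h, 1459, 1371 and 1365 FPKM at 6 h, and 1270.2, 903 and 1132 FPKM at 12 h. Its 24 and 48 h libraries read 2469 to 2802 FPKM, and its 120 h libraries 4132, 6273 and 6126 FPKM. Like the 2 listed transcripts it was lowest at 6 and 12 h and overlapped 0 h at 120 h. From 48 to 120 h it rose by 1.01 ± 0.14 on the log2 scale (limma, adjusted p = 3.6e-04), just past the minimum. It was under the minimum without replicate 3 at 48 h (0.95), replicate 2 at 120 h (0.91) or replicate 3 at 120 h (0.92), with a common FPKM total (0.99) and with quantile normalization (0.80), and had an adjusted p of 0.0732 with the spread of the 48 and 120 h libraries alone. The FPKM of the 3 summed to 7806 to 9254 at 0 h, 1975 to 2157 at 6 h, 1613 to 2076 at 12 h, 4509 to 4589 at 24 h, 4344 to 5168 at 48 h and 6822 to 10640.5 at 120 h.

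Because reads of one locus may be split among these transcripts, the sum was also tested. It rose from 12 to 24 h by 1.30 ± 0.14 on the log2 scale (limma, adjusted p = 7.4e-06). From 48 to 120 h it was higher by 0.91 ± 0.14 (adjusted p = 7.5e-04), under the fold minimum that f29p60_719_13862 and the shorter transcript had passed alone. The early mean was below the late mean (log2 difference -1.36 ± 0.09, adjusted p = 6.1e-09). The share of the longer transcript in the sum was 34.5% ± 0.5 (SD, n = 3) at 0 h, 30.98% ± 0.7 at 6 h, 40.4% ± 2.8 at 12 h, 44.1% ± 0.4 at 24 h, 44.1% ± 1.3 at 48 h and 39.9% ± 0.8 at 120 h. The shorter one held between 0.264 and 0.649% in every library.

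**Figure D3:**
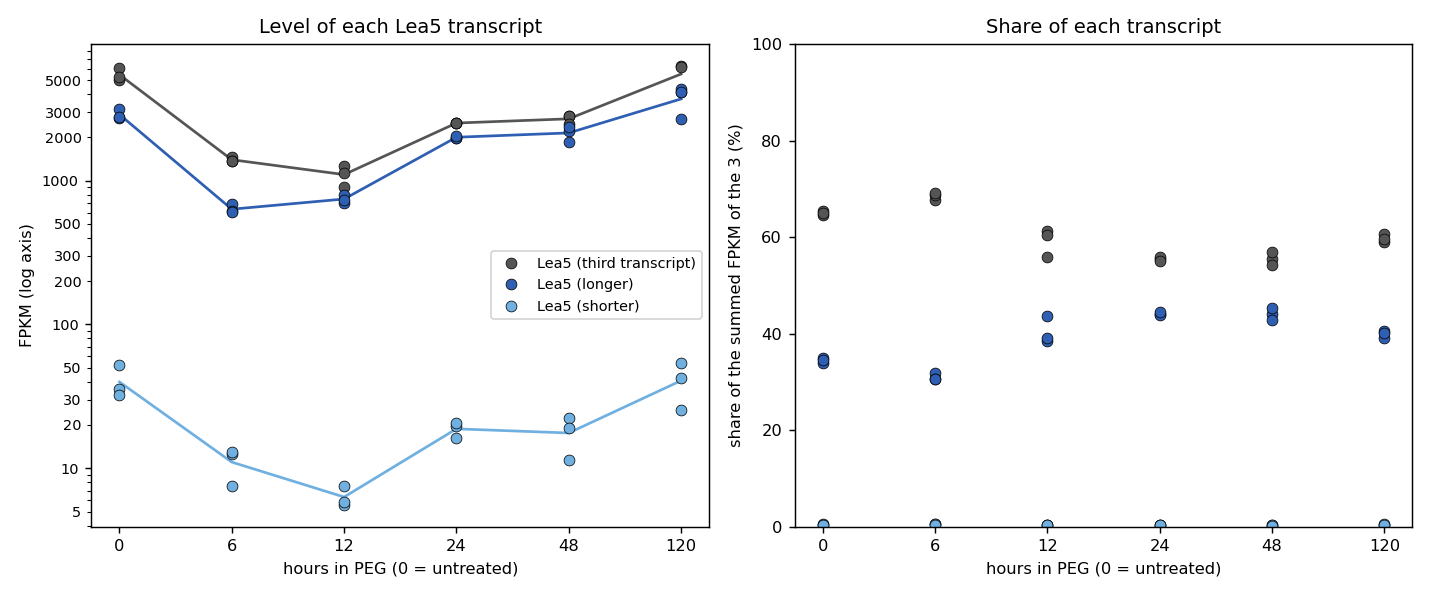
Left, FPKM (log axis) of the 3 transcripts matched to Lea5 against hours in PEG, 1 point per library and lines through the means. Right, the share of each in their summed FPKM per library. All 3 are lowest at 6 and 12 h, and the share of the longer listed transcript runs from 30.98% at 6 h to 44.1% at 24 h.

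The summed levels of the 2 tissue lists were also below 0 h at 6 and 12 h, to different degrees. Their later courses differed from that of Lea5. The summed root transporter level was 1159.9 to 1265 FPKM at 0 h, 387 to 393 FPKM at 6 h, 239 to 245 FPKM at 12 h, 242 to 259.7 FPKM at 24 h, 649.5 to 727 FPKM at 48 h and 884 to 1261 FPKM at 120 h. Its 24 h libraries overlapped those of 12 h, while the 24 h Lea5 sum was 2.45 times its 12 h mean. The summed photosystem level was 1595 to 1663 FPKM at 12 h, 2126 to 2439 FPKM at 24 h and 3063 to 3379 FPKM at 48 h, beside the 6 h values above. At 48 h it was above 0 h, while the Lea5 sum was at 0.580 times its 0 h mean. Their part in the Lea5 course was not tested.

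SAG21, a mitochondrial LEA protein in Arabidopsis that responds to oxidative stress, stayed low throughout. It read 456, 444 and 484 FPKM at 0 h, 153, 152 and 159 FPKM at 6 h, and 73.1, 77.6 and 79.5 FPKM at 12 h. At 24 h it read 136, 152 and 142 FPKM, at 48 h 127, 119 and 81.2 FPKM, and at 120 h 143, 208 and 177 FPKM. All 15 treated libraries lay below 0 h, from 0.166 times the 0 h mean at 12 h to 0.382 times at 120 h. The 120, 6 and 24 h means lay in that order, each overlapping the next.

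SAG21 fell by 1.003 ± 0.14 on the log2 scale from 6 to 12 h (limma, adjusted p = 5.1e-05, lower in 3 of 3 libraries), barely past the minimum. The difference was -0.98 without replicate 3 at 6 h and -0.97 without replicate 1 at 12 h, which ends the call. From 12 to 24 h it was higher by 0.89 ± 0.14 (adjusted p = 2.3e-04), from 24 to 48 h lower (-0.42 ± 0.14, adjusted p = 0.0496) and from 48 to 120 h higher by 0.70 ± 0.14 (adjusted p = 0.00535), all under the minimum. Early and late means differed by -0.19 ± 0.09 (adjusted p = 0.083), so the early to late difference of the Lea5 transcripts was not detected for SAG21.

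The second SAG21 transcript, f4p60_925_30958, took another course. It averaged 45.7 ± 3.4 FPKM (SD, n = 3) at 0 h, 94.1 ± 6.0 at 6 h, 44.0 ± 2.8 at 12 h and 38.9 ± 9.2 at 120 h. It was thus higher than 0 h at 6 h where the listed SAG21 transcript was lower, and it fell by 1.08 ± 0.18 on the log2 scale from 6 to 12 h (limma, adjusted p = 2.1e-04). Its best match is a different poplar gene model from that of the listed transcript.

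Taking the 8 by time, 4 were called higher and 3 lower than 0 h at 6 h, against 7.0% and 5.34% of the 12080 transcripts tested. A call needed an adjusted p under 0.05 and a log2 difference of at least 1. At 12 h 5 were called higher and 3 lower, against 5.73% and 3.59%. At 24 h 3 were called higher and 2 lower (4.43% and 1.81% of all), at 48 h 3 and 2 (3.23% and 1.85%), and at 120 h 2 and 1 (2.59% and 2.14%). These counts follow from how the transcripts were chosen and nothing is read from them. The 5 comparisons share the 0 h libraries. LEA29 and PCC3-06 were the ones called higher at 120 h, and SAG21 the one called lower.

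Between treated times, 5 of the 8 were called from 6 to 12 h, against 4.13% of all transcripts in either direction. The ABA-inducible transcript, PCC3-06 and SAG21 fell, and LEA D-29 and the 18 kDa transcript rose. From 12 to 24 h 4 were called (3.47% of all), with LEA D-29 and the 18 kDa transcript falling and both Lea5 transcripts rising. From 24 to 48 h none was called by limma (1.81% of all), while 4 had an unadjusted and 3 an adjusted p under 0.05. From 48 to 120 h 1 was called (1.25% of all), the shorter Lea5 transcript. Early against late gave 3 calls (5.46% of all), 1 higher early and 2 lower early. The treated libraries entered the choice of the 8, so counts above the share of all transcripts may follow from it. Nothing is read from these counts about the 8 as a group.

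The groups were split by their direction from 0 h, so the opposite course of their sums is fixed by the split and is given as levels only. The 5 higher transcripts together read 347 to 372 FPKM at 0 h, 2821 to 3190.0 FPKM at 6 h, 1277 to 1327 FPKM at 12 h and 574 to 878 FPKM at 120 h. The 3 lower ones read 3207 to 3648 FPKM at 0 h, 769 to 852.3 FPKM at 6 h, 788 to 879 FPKM at 12 h and 2833 to 4576 FPKM at 120 h. Over all 8, the summed level at 0 h (3745 ± 244 FPKM, SD, n = 3) overlapped that at 6 h (3833 ± 225), and 12 h was below both (2133 ± 29). The sums are mostly the ABA-inducible and the longer Lea5 transcript.

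Over the 18 libraries the likeness of the courses is given as Pearson's r of log2(FPKM + 1). LEA D-29 and the 18 kDa transcript had r = 0.97, the 2 Lea5 transcripts 0.90, LEA29 and PCC3-06 0.84, and the ABA-inducible transcript and PCC3-06 0.84. LEA D-29 and LEA29, in spite of their shared name, had r = 0.58, and SAG21 had 0.53 with the longer and 0.76 with the shorter Lea5 transcript. The lowest value was -0.85, between the ABA-inducible and the longer Lea5 transcript. The libraries share their times, so these values describe the courses only.

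Courses were compared with those of 525 tested transcripts for which a protein name was read, only a part of those the study annotated. The names were read from the study's supplement, which includes its DEG lists. The share of DEGs among the 525 was not counted, so the kinds of protein that came out closest may follow from this pool. The one most like LEA D-29 and the 18 kDa transcript was NCED1 (f2p21_2499_2742), with r = 0.97 and 0.99 over the 18 libraries. It is a 9-cis-epoxycarotenoid dioxygenase of ABA synthesis. The paper calls this transcript NCED3, measured it by PCR as well, and reports an NCED3 homolog as highest at 12 h. Next came ABC transporter G family member 22 for LEA D-29 (0.94) and 14-3-3 protein 7 for the 18 kDa transcript (0.92). For LEA29 they were 2 transcripts of cinnamoyl-CoA reductase 1, an enzyme of lignin monomer synthesis (0.95 and 0.94). For the ABA-inducible transcript they were calcium-transporting ATPase 10 (0.96) and 5'-adenylylsulfate reductase 3 of sulfate assimilation (0.95). For PCC3-06 they were AAA-ATPase ASD (0.93) and potassium transporter 2 (0.90).

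For the longer Lea5 transcript the closest were alpha-glucosidase 2 and mitochondrial manganese superoxide dismutase (both 0.95). For the shorter one they were potassium transporter 5 (0.91) and amino acid transporter AVT6A (0.90). For SAG21 they were abscisic acid 8'-hydroxylase 1, which breaks ABA down (0.89), and ALUMINUM SENSITIVE 3 (0.88). The longer Lea5 transcript had 289 of all 12079 other transcripts above r = 0.9 and the 18 kDa transcript 24. The shorter Lea5 transcript had 21, although its r with the longer one was 0.90. These counts therefore do not show how common a course is.

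The 5 listed dehydrins, LEA proteins of another group, serve as a comparison. They too come from the study's DEG list, so calls against 0 h follow from the choice. All 5 were called higher at 6 h, against 7.0% of all transcripts, with log2 differences from 1.16 for ERD14 to 3.28 for a Rab18-like transcript and a median of 2.12, beside a median of 0.01 over all transcripts tested. At 120 h 3 were called (2.59% of all), with a median of 1.32. Their courses had no 12 h peak, and from 6 to 12 h they differed by -1.36 to -0.49. The ABA-inducible transcript (-1.46) and PCC3-06 (-1.53) fell over that step too. LEA29 (0.42), LEA D-29 (2.82) and the 18 kDa transcript (4.47) were higher at 12 h than at 6 h. The 5 higher transcripts had a median of 1.74 at 6 h and 0.76 at 120 h, and the 3 lower ones -1.76 (range -2.18 to -1.57) and -0.01. The difference between the groups was not tested.

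**Figure D4:**
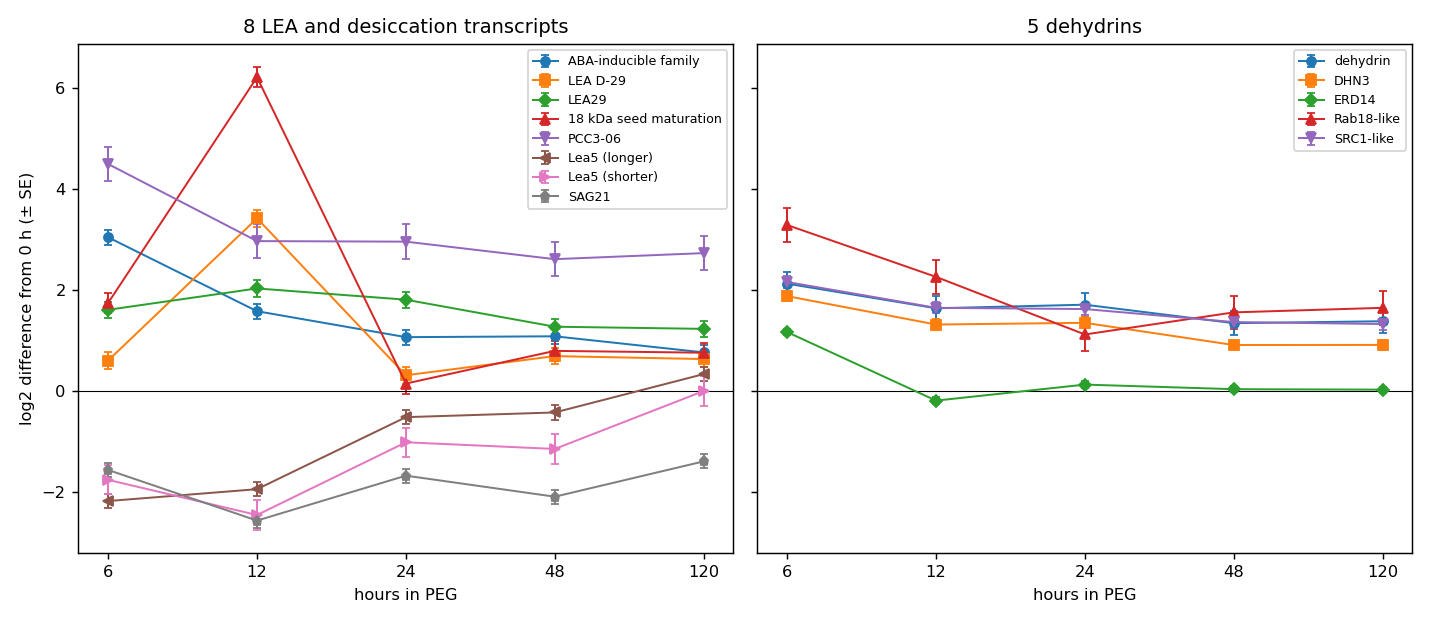
Log2 difference from 0 h (± SE of the fit, 3 libraries per time) against hours in PEG for the 8 transcripts (left) and the 5 dehydrins (right), on one scale. The dehydrins lie at or above 0 except ERD14 at 12 h (-0.20), while on the left 2 transcripts peak at 12 h and 3 lie below 0 from 6 to 48 h.

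Of the other listed LEA transcripts, Lea14-A and 4 NDR1/HIN1-like proteins, also from the DEG list, 2 were called higher and 1 lower at 6 h, against 7.0% and 5.34% of all transcripts. Lea14-A averaged 49.4 FPKM at 0 h and 182 FPKM at 6 h, and it was back at 75.0 FPKM at 12 h, a log2 difference of -1.27 ± 0.10 (limma, adjusted p = 1.2e-07). Their log2 differences ran from -1.03 to 1.86 at 6 h and from -1.45 to 0.20 at 120 h.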

How the data were processed

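Root RNA was sequenced from 18 libraries, 3 at each of 6 times. The deposited values are FPKM that the authors calculated with RSEM 1.2.31 on PacBio consensus transcripts, and the submitters' processing notes also name HTSeq 0.6.0. The study tested read counts, which were not used here. Table columns carry codes without times: they were read as 0 h and the treated times in order, a reading that was checked against the fold changes in the study's supplementary DEG table at all 5 treated times. A short table in the study's text gives other values, and in part other names, for 3 of the 8 transcripts. At all 5 treated times these values are near those that another transcript had here. Its values for f2p37_1282_27056 are near those of f13p60_601_14927 here (3.04 at 6 h). Those for f2p45_1593_6461 are near f2p37_1282_27056 (1.60), and those for f13p60_601_14927 near the dehydrin f8p60_825_32305 (2.155). At 6 to 48 h it also lists potassium transporter 2 as lower and potassium transporter 5 as higher. Those directions are opposite to PCC3-06 and the shorter Lea5 transcript, whose courses here were like theirs. Whether the values printed for the potassium transporters also belong to other transcripts was not checked. That table was not used, and names here follow the supplementary annotation. The replicate digit could not be checked that way. Transcripts reaching 1 FPKM in 3 or more libraries (12080) were fitted as log2(FPKM + 1) with limma 3.58.1 in R 4.3.3, with time as a factor, an intensity trend and robust moderation, and p was adjusted by Benjamini-Hochberg over all of them. This scale understates changes of low transcripts. All 8 transcripts passed the filter. The fit was tested on simulated data. Tables and figures used Python 3.11.15, pandas 2.3.3, numpy 2.4.6 and matplotlib 3.10.9.

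The transcripts and lists were chosen with earlier results of these data known. Named are the 8, transcripts with the same best match, the second SAG21 transcript, the other listed LEA transcripts and dehydrins, and for each of the 8 the 2 named transcripts of highest Pearson r. Names come from the study's supplementary annotation, from which a protein name was read for 569 transcripts. The paper reports many more annotated genes. Alternatives were other constants, filters, scalings, spread estimates, a replicate block, single libraries left out, and transcripts of the same match summed. Every replicate is a pool of seedlings. Columns of the authors' own comparisons were not used as values, and no sequences are shown because none were at hand.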

Additional observations from a re-analysis of the deposited data

Results flagged for a closer look

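The level differed between successive treated times for 7 of the 8 transcripts, each called in any of the steps. The test was limma's contrast between both times, with 3 libraries at each and Benjamini-Hochberg adjustment over 12080 transcripts. Of all transcripts, 4.13% were called from 6 to 12 h, 3.47% from 12 to 24 h, 1.81% from 24 to 48 h and 1.25% from 48 to 120 h. The share called in any step was not computed. The treated libraries entered the choice of the 8, so nothing is read from their count. From 6 to 12 h the log2 difference was -1.46 for the ABA-inducible transcript (adjusted p = 2.4e-06), 2.82 for LEA D-29 (1.2e-08), 4.47 for the 18 kDa seed maturation protein (9.5e-10), -1.53 for PCC3-06 (0.00231) and -1.003 for SAG21 (5.1e-05). From 12 to 24 h it was -3.11 for LEA D-29 (adjusted p = 5.7e-09), -6.07 for the 18 kDa transcript (5.3e-11), 1.43 for the longer Lea5 transcript (3.6e-06) and 1.44 for the shorter one (0.00161). From 48 to 120 h it was 1.15 for the shorter Lea5 transcript (adjusted p = 0.0223). The SAG21 call was just past the minimum and was lost without replicate 3 at 6 h (-0.98) or replicate 1 at 12 h (-0.97). LEA29 had no such step. No roots without PEG were taken at these times, so PEG and the time in liquid cannot be told apart in these differences.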

How the results depend on the processing

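Calls are counted over the 8 transcripts. With transcripts of the same best match summed, which leaves 7 features, 3 were called in place of 5 at 24 h and at 48 h against 0 h. From 24 to 48 h 1 was called in place of 0 with a constant of 0.1 (the 18 kDa transcript, log2 difference 1.12). From 48 to 120 h 0 were called in place of 1 with a constant of 5, with the libraries compared alone and with summed transcripts, and 0 to 1 when 1 library was left out. Early against late gave 2 in place of 3 with a constant of 5 and with summed transcripts, and 3 to 4 when 1 library was left out. The other counts stayed within 1.5 times. SAG21 from 6 to 12 h was under the fold minimum with a constant of 5 (-0.97), median scaling (-0.95) and quantile normalization (-0.96), and the ABA-inducible transcript passed it early against late with a common FPKM total (1.002) and quantile normalization (1.04). No called difference changed sign, and 19 uncalled ones between treated times did. Uncalled differences from 0 h were not in that count. Some changed sign, such as the shorter Lea5 transcript at 120 h (-0.24 to 0.29 when 1 library was left out). Causes beyond the construction of each alternative were not tested.

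Numbers shared by replicates did not mark pairs, since deviations of same-numbered libraries had a mean correlation of -0.02 (45 pairs, -0.13 to 0.10). With a replicate block the counts were 7, 8, 5, 5 and 3 against 0 h, 5, 4, 0 and 1 for the steps and 3 for early against late, as without it. Over all transcripts, a constant of 5 lowered the calls from 614 to 385 at 48 h, 572 to 341 at 120 h, 499 to 315 from 6 to 12 h, 419 to 260 from 12 to 24 h, 219 to 132 from 24 to 48 h, 151 to 86 from 48 to 120 h and 660 to 427 early against late. The libraries compared alone gave 143 and 51 for the last 2 steps. Levels of the 18 kDa transcript at 0 and 24 h are near a few fragments, so depth limits its folds.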
